A study of Solanum lycopersicum x Solanum pennellii and Solanum lycopersicum with 7 samples.

Results

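On chromosome 4 of the tomato line M82, 1355 single-nucleotide variants (SNVs) were called homozygous for a base other than the reference base, out of 7356 such SNVs in the whole library. They were chosen by measured values of 1 deposited variant list: a variant quality (QUAL) of at least 30, a read depth (DP) of at least 10, no insertion or deletion, and the genotype 1/1. The chromosome 4 SNVs made up 18.4% of all homozygous SNVs past the same limits (exact Clopper-Pearson 95% interval 17.5% to 19.3%). The library came from leaf RNA of M82 plants grown in the field and was described by the submitters as the control, replicate 2, whose variants served to check the genotypes of the other lines. The study's other 6 libraries were leaf RNA of 2 introgression lines between Solanum lycopersicum and Solanum pennellii, IL2-6 with 3 libraries and IL3-2 with 3, with no treatment named in the labels. They entered here only as counts of genes. No plant ages or numbers of plants per library were given in the sources used here. All results on SNVs rest on 1 library without a replicate, so they are descriptions, intervals cover counting error only, and no test between groups was made.

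M82 is an inbred processing tomato and the cultivated parent of the introgression lines. The positions are those of SL2.50, a build of the reference genome of a different cultivated tomato, of the Heinz lines. In an inbred plant, a homozygous SNV marks a position where the line and the reference plant carry different bases. Such differences lie far apart where both cultivars descend from the same recent ancestor and close together where they carry haplotypes that parted long ago, for example after breeders crossed in a chromosome piece of a wild relative. In RNA, a difference is seen only where a transcript covers it. A stretch with few SNVs may therefore hold few differences or few leaf transcripts. Positions where M82 matched the reference were not analysed here, so the 2 cases cannot be told apart.

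The changes in the densest 1 kb are shown first, as the extreme of the chromosome. Clusters in the dense tracts, of SNVs linked at up to 1 kb, had a median of 2 SNVs. Each is written as the reference base, the position on chromosome 4 counted from 1 in SL2.50, and the base in M82, on the forward strand. Within 869 bases from 55240712 to 55241580 lay 12 homozygous SNVs, the most in any 1 kb counted from a member on. They were A55240712C, C55240717T, G55241078A, T55241157C, C55241299A, C55241332A, C55241368T, G55241390A, G55241433A, C55241445T, T55241470C and G55241580A. Their depth was 15 to 55 reads, and no high-quality base at any of these positions matched the reference. Of the 12 changes, 9 were transitions, that is changes within the purines A and G or within the pyrimidines C and T. No heterozygous SNV lay in this window.

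The second window, 861 bases from 61797329 to 61798189, held 10 homozygous SNVs at 160 to 367 reads. Its deepest site, C61797486T, had 332 alternate and 0 reference bases of high quality. The third window, 988 bases from 50722774 to 50723761, held 9 SNVs at 11 to 53 reads, of which 7 were transitions. All 3 listed windows lay in the dense tracts described next, which were drawn from these same SNVs.

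Along the chromosome the SNVs were gathered in few places. Counted in 67 bins of 1 Mb, the median bin held 7, 8 bins held none, 35 held 1 to 9, and 19 held 10 to 49. A bin was called dense at 50 or more homozygous SNVs. On chromosome 4, 5 of the 67 bins were dense (7.46%), against 3.96% of 808 bins over the 12 chromosomes and 3.64% of the 741 bins outside chromosome 4. Single chromosomes ran from 0 dense bins on chromosome 8 to 10.6% on chromosome 5, chromosome 11 had 8.77%, and the other 9 had a lower share than chromosome 4. Adjacent dense bins were joined into 4 tracts, whose edges are their first and last homozygous SNV. Together the tracts held 819 SNVs, or 60.4% of the members (57.8% to 63.1%), in 4.80 Mb, which is 7.22% of the span from the first to the last record of the chromosome. Tracts drawn the same way held 62.9% of the homozygous SNVs on chromosomes 2 and 3 each, and less than on chromosome 4 on the other 9.

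**Figure D1:**
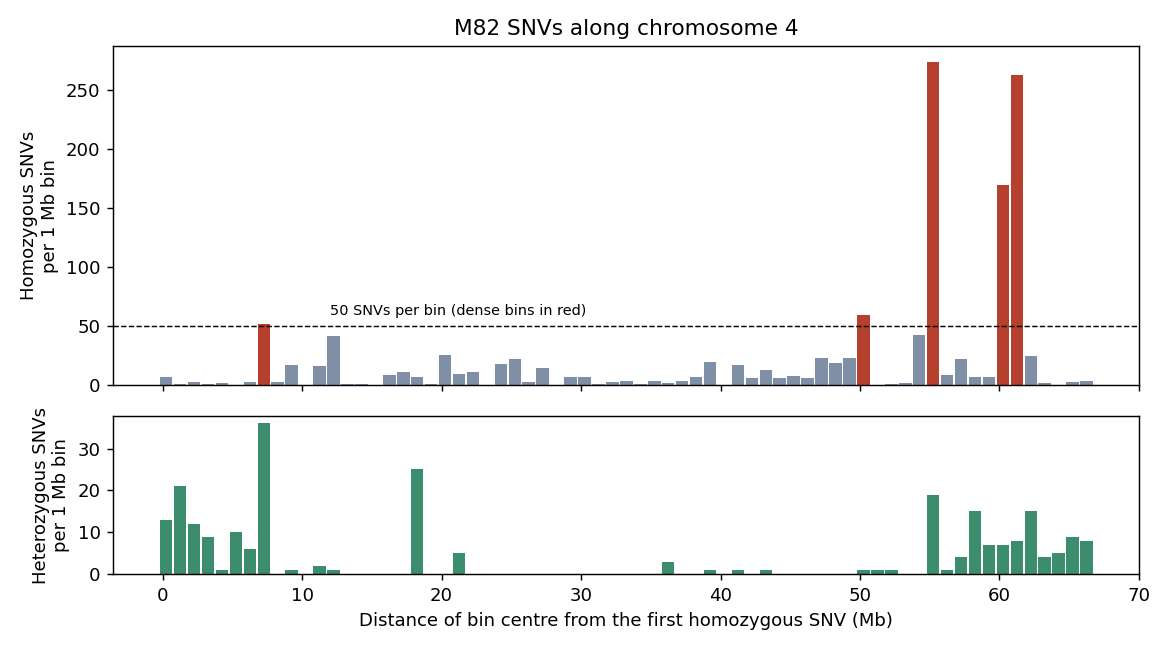
SNVs of M82 on chromosome 4 per bin of 1 Mb, homozygous above and heterozygous below, plotted by the distance of the bin centre from the first homozygous SNV in Mb. The 5 bins with at least 50 homozygous SNVs are red, and the highest of them holds 274. Heterozygous SNVs lie mostly toward both ends and are absent from 35 of the 67 bins.

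Tract 4, from 60017397 to 61997344, was the longest and held 433 homozygous SNVs, or 219 per Mb. Tract 3, from 55011305 to 55992304, held 274, or 279 per Mb, the highest density of the 4. Tract 2, from 50046416 to 50981599, held 60 at 64.2 per Mb. Tract 1, from 7063623 to 7966319, held 52 at 57.6 per Mb. The 2 richest tracts thus held most of the SNVs, while tracts 1 and 2 lay just over the limit for a dense bin. The next bins under that limit, from 54000001 to 55000000 and from 12000001 to 13000000, held 43 and 42.

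The tracts differed in how many heterozygous SNVs, sites with reads of both bases, lay among the homozygous ones. In tract 2 there was 1 heterozygous SNV beside 60 homozygous, in tract 4 there were 15 beside 433, and in tract 3 there were 18 beside 274. In tract 1 there were 35 beside 52, so that 59.8% of its SNVs were homozygous (48.7% to 70.1%), against 93.8% in tract 3 (90.4% to 96.3%) and 96.7% in tract 4 (94.5% to 98.1%). The genotype is part of the rule, so these shares are given as a description. In tract 1, 33 of the heterozygous SNVs lay within 100 kb, from 7335248 to 7368855, where 12 homozygous SNVs were found between 7300001 and 7400000.

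The ends of the chromosome differed from its middle in the share of homozygous SNVs, over stretches whose borders were drawn after the bins had been seen. From the start to 7 Mb, 7 bins held 0 to 7 homozygous SNVs each, 17 in all, beside 72 heterozygous SNVs, and 19.1% of the SNVs were homozygous (11.5% to 28.8%). From 63 Mb to the last record, there were 9 homozygous and 26 heterozygous SNVs (25.7% homozygous, 12.5% to 43.3%). From 9 to 50 Mb the pattern was the opposite, with 391 homozygous and 40 heterozygous SNVs (90.7% homozygous, 87.6% to 93.3%). Of the 41 bins in this middle stretch, 36 held homozygous SNVs and 9 held a heterozygous one, and the median bin held 7 and the highest 42. A single bin, from 18000001 to 19000000, held 25 of the 40 heterozygous SNVs. The shorter stretches between tracts 2, 3 and 4 were mixed, with 3 homozygous and 2 heterozygous SNVs from 51 to 54 Mb, 43 and 0 from 54 to 55 Mb, and 45 and 27 from 56 to 60 Mb. The middle stretch held few homozygous SNVs per Mb, 9.54 against 20.4 over the chromosome with the tracts included. Of its SNVs of both kinds, 90.7% were homozygous.

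These shares depend on the limits. Without limits on quality and depth, chromosome 4 had 4703 homozygous SNVs, of which 1637, or 34.8%, lay from 9 to 50 Mb, and 2181, or 46.4%, in the tracts. In the middle stretch 23.9% of them passed the limits, against 37.6% in the tracts. The members give the middle stretch a share of 28.9% and the tracts a share of 60.4%, but the tracts were drawn from SNVs past the limits, which favours a larger share and pass rate there.

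The edges of the 2 richest tracts were also drawn by linking homozygous SNVs at most 0.2 Mb apart into blocks of at least 50. For these tracts the blocks also take in sparser flanks. Linking does not depend on where a bin starts, but it leaves the first 0.2 Mb outside each block edge without members by rule. It gave 5 blocks with 922 SNVs in all, or 68.0% of the members, in 6.51 Mb. One of them, from 11890205 to 12730205 with 57 SNVs, held no dense bin, since a bin border at 12000000 divided it. Its 67.9 SNVs per Mb were above the 57.6 of tract 1 and the 64.2 of tract 2. It is counted outside the tracts and in the middle stretch.

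The block around tract 3 ran from T54926105C to C56086497T and held 286 SNVs in 1.16 Mb. Its right edge was abrupt. The 500 kb inside it held 92 homozygous SNVs and the 500 kb outside held 0, and the next one, C57824931T, lay 1738 kb away. Without limits on quality and depth, 295 homozygous SNVs lay in the 500 kb inside and 8 in the 500 kb outside. The outer 500 kb had only 8 records of any kind, so few differences and few leaf transcripts there cannot be told apart. The left edge was less clear: 177 SNVs lay in the 500 kb inside and 35 in the 500 kb outside, and the nearest, A54631160G, was 295 kb away. Most of these outer SNVs belonged to a separate group between 54400001 and 54700000, with 7, 29 and 4 per 100 kb.

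The block around tract 4 ran from T59787424C to C62353474T and held 459 SNVs in 2.57 Mb. On the left, the first 100 kb inside held 4 SNVs and the 500 kb outside held 0, where 48 records of any kind were listed. Of these 48, 21 were homozygous SNVs under the limits. From 60000001 on, the first 3 bins of 100 kb held 16, 22 and 15. On the right, the bin from 61900001 to 62000000 held 30 homozygous SNVs, the next held 9 and the one after it 0, while records of low depth ran on in small numbers. Beyond 62200001 the block held only 7 and 4 per 100 kb, and 11 and 2 heterozygous SNVs. Outside the right edge, 500 kb held 1 homozygous SNV past the limits, 29 without limits on quality and depth, and 50 records of any kind. The 500 kb inside this edge held 132 homozygous SNVs without these limits and 189 records of any kind.

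**Figure D2:**
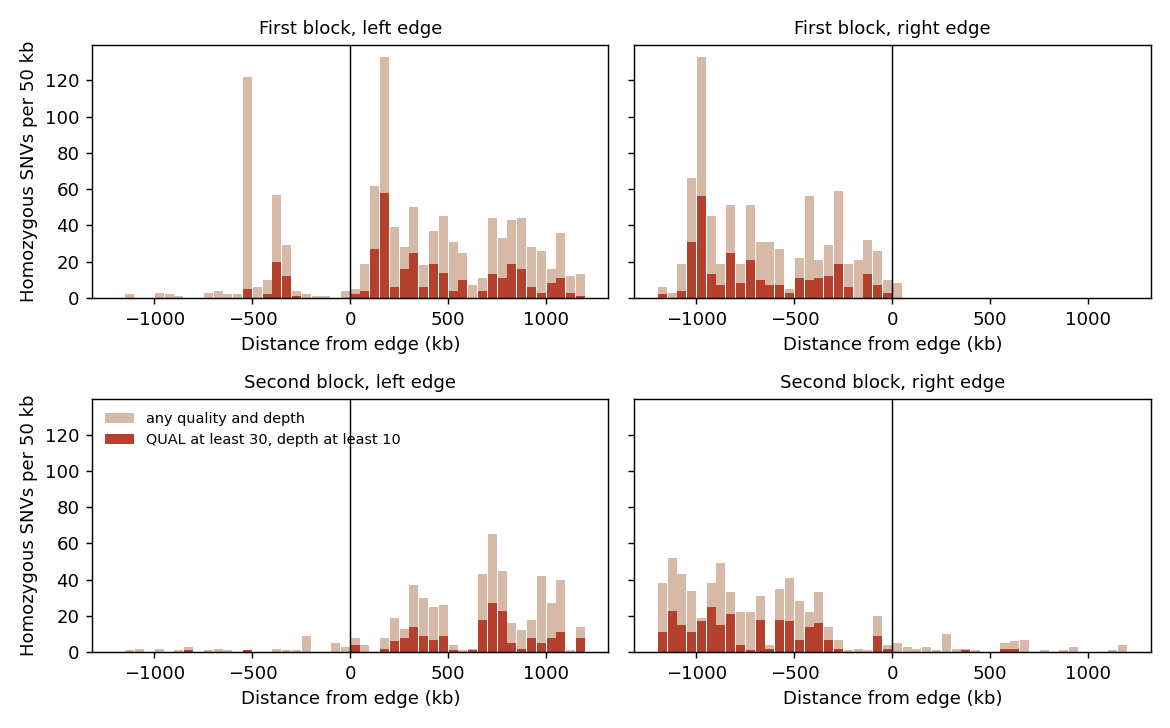
Homozygous SNVs per 50 kb around the edges of the 2 richest blocks of linked SNVs, by distance from the edge in kb, with all homozygous SNVs in the pale bars and those past both limits in red. The first block ends within 50 kb on its right, and the second thins out on the right before its last SNV.

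Past the limits, tract 2 also ended sharply on its right, at C50981599T. Without limits on quality and depth, 114 homozygous SNVs lay in the 500 kb inside this edge and 16 in the 500 kb outside. Past the limits, the 500 kb inside held 43 and the 500 kb outside held 0, where 26 records of any kind were listed. The next member, A52951586G, lay 1970 kb away. That gap was the second widest on the chromosome. The widest, 1.97 Mb as well, lay between T22352650C and G24326119T in the middle stretch. It held 40 records, of which 33 were homozygous SNVs under the limits and none was a heterozygous SNV past the limits. The third, 1.96 Mb between C9638035G and A11593191G, held 15 records, of which 14 were homozygous SNVs under the limits. Tract 1 stood alone, with the nearest homozygous SNVs 490 kb to its left and 554 kb to its right.

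At the scale of transcripts the SNVs were clustered as well. The median distance between neighbours was 726 bases (interquartile range 120 to 7310), 22.5% of the distances were at most 100 bases, and 17 were over 1 Mb. Linked at up to 1 kb, the 1355 SNVs formed 626 clusters, of which 338 were a single SNV. Inside the tracts the 336 clusters held a mean of 2.44 SNVs and 49.1% were single. Outside, the 290 clusters held a mean of 1.85 and 59.7% were single. Within clusters the median spacing was 132 bases in the tracts and 137 outside. The tracts held many more clusters per Mb, and clusters slightly larger, while the spacing inside a cluster was alike in size. More and larger clusters are favoured by how the tracts were drawn, from bins with many of these same SNVs.

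The largest cluster, 26 SNVs over 4.05 kb from 55109351 to 55113403, had depths of only 10 to 28 reads. The next, 17 SNVs over 4.23 kb, ran from 55103367 to 55107597, shortly before it in tract 3. Of the 14 clusters with at least 10 SNVs, 11 lay in the tracts, as did 336 of all 626 clusters. The tracts were drawn where these same SNVs were many, which favours large clusters there. A cluster of 15 SNVs from 61796597 to 61799471 was the best covered of the 4 largest, with a median depth of 274 reads. The genes behind these clusters are not named, since no annotation of SL2.50 was used here.

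Depth at the members had a median of 28 reads (order-statistic 95% interval 26 to 29) and an interquartile range of 16 to 60.5. The 11 other numbered chromosomes together also had a median of 28, and singly they ranged from 25 on chromosome 5 to 49 on chromosome 6. In the tracts the median was 29 (26 to 33) and outside 26 (24 to 29), so these intervals overlapped. Tract 4 was deeper, with 34 reads (30 to 44) and 23.8% of its SNVs at 100 reads or more, against 24.5 reads (22 to 27) and 13.9% in tract 3. SNVs of the same transcript share reads, so these intervals are too narrow.

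**Figure D3:**
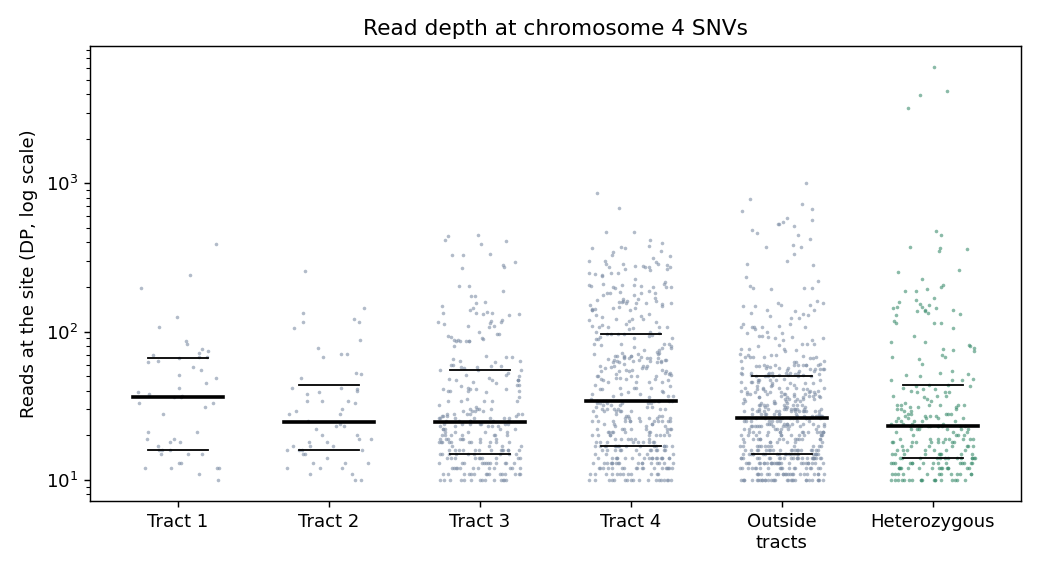
Reads at each chromosome 4 SNV past the limits, on a log scale, for the 4 tracts, the other homozygous SNVs and the heterozygous SNVs, with medians as thick lines and quartiles as thin lines. The medians run from 23 reads in the heterozygous SNVs to 36 in tract 1, and the lower bound of 10 reads is set by the rule.

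The deepest site was G65980832T with 1007 reads, near the far end of the chromosome and outside the tracts. It had 969 alternate and 0 reference bases of high quality, 932 of them on the forward strand and 37 on the reverse. A60942848G in tract 4 followed with 867 reads, and G11940523C in the middle stretch with 788, of which 384 alternate bases were forward and 386 reverse. At the other end, 66 members had exactly 10 reads, and 70 homozygous SNVs of sufficient quality were left out at 9 reads. Quality hardly acted on its own: 1717 homozygous SNVs were left out for depth alone, 1630 for both and 1 for quality alone. The lowest quality inside the limit was 35, at A41798827G, and that 1 SNV outside, T30149425C, had a quality of 11.3 and a mapping quality of 14.

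The bases behind the genotypes were nearly all alternate. Summed over the members, 77114 high-quality bases were alternate and 133 were reference, so 99.8% were alternate, and 1303 members (96.2%) had no reference base. Alternate bases lay on both strands at 1293 members (95.4%), with a median of 50% on the forward strand and quartiles of 37.5% and 63.4%. The mapping quality was 50 at 95.8% of the members. At the heterozygous SNVs of chromosome 4 the median alternate share was 33.3%, and 13.0% of them had a mapping quality under 50, against 4.21% of the members.

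The rule did not use which bases changed. Of the 1351 members with 1 reference and 1 alternate base, 838 were transitions, or 62.0% (59.4% to 64.6%), which is 1.63 transitions per transversion. The homozygous SNVs of the 11 other chromosomes gave 62.7% (61.5% to 64.0%), with single chromosomes from 58.7% to 67.2%. Chromosome 4 lay within this range. Both pairs of complementary transitions were about equally frequent, A-to-G with T-to-C at 412 members (30.5%) and G-to-A with C-to-T at 426 (31.5%). Among the transversions, A-to-T with T-to-A was the most frequent with 167 members and G-to-C with C-to-G the rarest with 84. Changes from A or T to G or C numbered 543 and the reverse 557.

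In the tracts 64.3% of the members were transitions (60.9% to 67.6%) and outside 58.5% (54.2% to 62.8%), with intervals that overlapped. Tract 3 had the highest share, 69.0% (63.1% to 74.4%), above the interval of the members outside the tracts. Tract 4 had 62.7% (58.0% to 67.3%), and tract 1 had 51.9% over only 52 SNVs (37.6% to 66.0%). The share was 59.7% at 10 to 19 reads, 62.0% at 20 to 99 and 67.3% at 100 or more (60.5% to 73.6%), again with overlapping intervals. The homozygous SNVs under the limits had 59.7% (58.0% to 61.3%), and the heterozygous SNVs 54.8% (48.4% to 61.0%). No test was made of these differences, since neighbouring SNVs are inherited together and are not independent. Whether intervals overlapped or not therefore does not decide whether the shares differ.

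**Figure D4:**
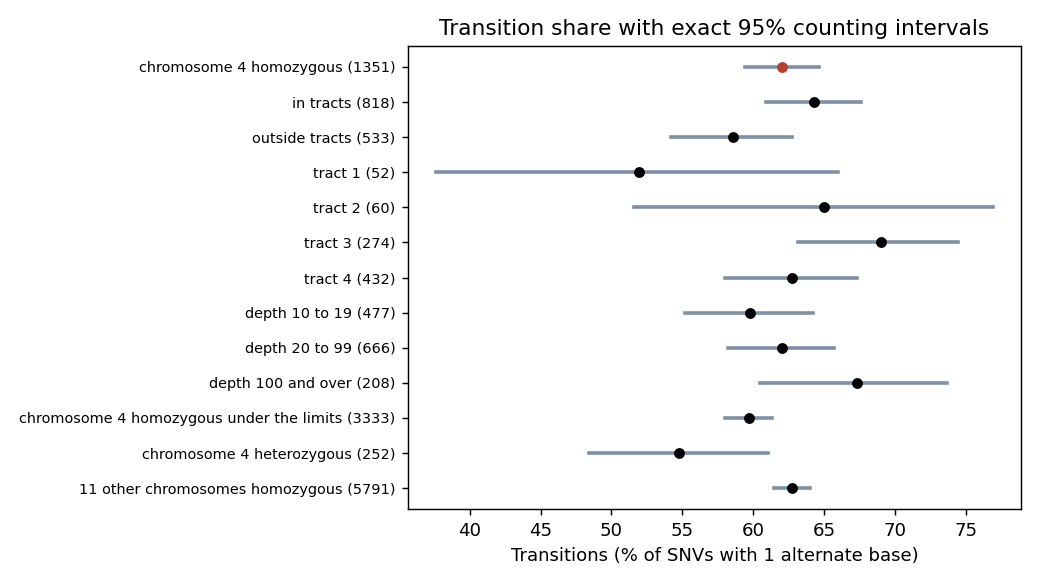
Transitions as a percentage of the SNVs with 1 alternate base, with exact 95% counting intervals and the number of SNVs in parentheses. Chromosome 4 as a whole, at 62.0%, lies beside the 11 other chromosomes, at 62.7%, and tract 3 has the highest share at 69.0%.

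Chromosome 4 was set beside the other chromosomes by the number of genes that leaf RNA can show variants in. A gene was counted where each of the 6 introgression line libraries, of 18479252 to 40146308 counts, had at least 10 counts, which held for 1554 of the 2742 genes listed for chromosome 4. Per 100 counted genes, chromosome 4 had 87.2 homozygous SNVs, behind chromosome 5 with 131 and ahead of chromosome 11 with 68.3, while the median of the 11 other chromosomes was 25.7. Its 16.3 heterozygous SNVs per 100 counted genes compared with a median of 14.3 on the others (11.5 to 36.1). Chromosome 4 thus stood out from most chromosomes in homozygous and not in heterozygous SNVs, although the difference was not tested. The gene counts come from other lines than M82, so they stand only for which genes tomato leaves express.

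**Figure D5:**
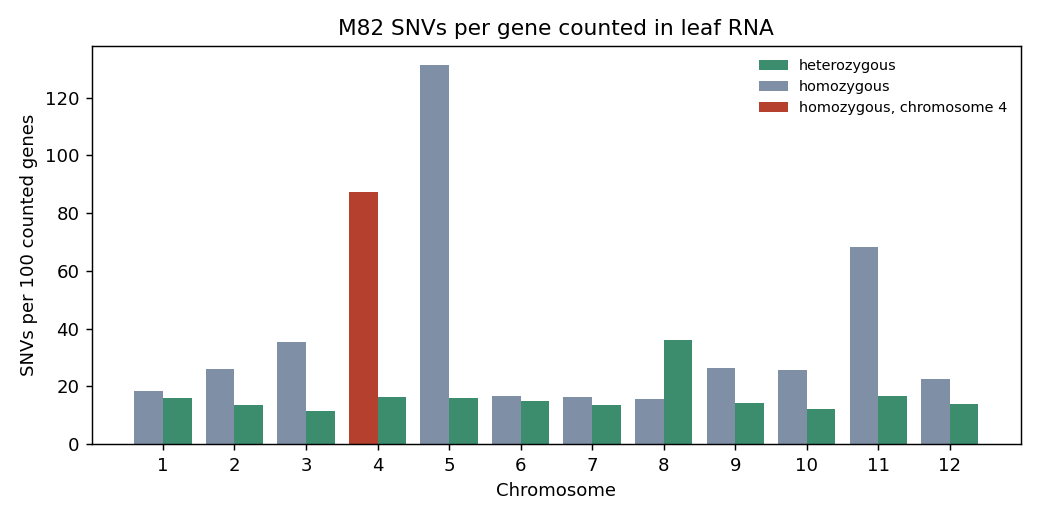
Homozygous and heterozygous SNVs of M82 per 100 genes counted in leaf RNA of the introgression lines, by chromosome. Chromosome 4 (red) has 87.2 homozygous SNVs per 100 genes, between chromosomes 5 and 11, and a heterozygous rate of 16.3, within the range of the others.

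Chromosomes 4, 5 and 11 differed in how their homozygous SNVs were spread. The 3 richest bins held 52.2% of the SNVs of chromosome 4, against 22.1% on chromosome 5 and 25.6% on chromosome 11. The median bin held 7 SNVs on chromosome 4, 15 on chromosome 5 and 8 on chromosome 11, against 0 to 2 on each of the other 9. The other 2 chromosomes had dense tracts as well, 4 each, with 692 SNVs on chromosome 5 and 338 on chromosome 11, or 41.8% and 38.5% of their homozygous SNVs. A high share in few bins was also found elsewhere: the 3 richest bins held 66.5% on chromosome 2, 55.5% on chromosome 3, 59.1% on chromosome 9 and 59.4% on chromosome 10. The highest bin of chromosome 4, with 274, was the highest of the 12 chromosomes, followed by 194 on chromosome 3 and 189 on chromosome 2. That of chromosome 5 held 135.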

How the data were processed

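The authors deposited 1 variant list for M82 and 6 tables of raw counts per gene for the introgression lines. The quality score of each variant and its depth fields are the authors' deposited values, and the build SL2.50 is given by the chromosome names, per the file headers. Which program called the variants is not given in the sources used here. TopHat2 and SAMtools 1.9 are among the tools in the submitters' processing notes, with no role stated. Per the labels' protocols, some libraries were single-end and others stranded and paired-end, with no word on which kind the M82 library is.

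Groups follow the line named in each sample title. SNVs were kept at a quality of at least 30 and a depth of at least 10, and counted in bins of 1 Mb. Depth is the DP field, and alternate and reference bases are the high-quality bases of DP4. Shares have exact Clopper-Pearson intervals and medians have order-statistic intervals (scipy 1.17.1, pandas 2.3.3), which cover counting error only. The tract finder was checked on simulated data of randomly scattered SNVs. Their blocks lay far over the limit for a dense bin and began and ended at bin borders. That check does not cover clustered SNVs, tracts just over the limit or blocks divided by a bin border. Sites were named by rule: tract edges, the widest gaps, the deepest sites, the densest windows of 1 kb and those nearest the limits. Clusters and stretches between tracts were picked after their values were seen. The members and lists were chosen with earlier results of these data known. The alternatives varied the limits, the bins and the genes counted. No annotation or genome was used, so no gene or flanking sequence is given.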

Additional observations from a re-analysis of the deposited data

Results flagged for a closer look

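Records that the rule left out also lay in the dense tracts, and they were looked at because they exceed the 3 counts that a count of 0 allows. Of 94 homozygous insertions and deletions on chromosome 4 past the same limits, 41 lay in the tracts, or 43.6% (exact 95% interval 33.4% to 54.2%), against 60.4% of the homozygous SNVs and 27.3% of the 253 heterozygous SNVs. The share of the homozygous SNVs is inflated in this comparison, since their counts drew the tracts. Of 3348 homozygous SNVs under the quality or depth limit, 1362 lay in the tracts, or 40.7% (39.0% to 42.4%). The tracts span 7.22% of the chromosome, but in RNA a variant is seen only where a transcript covers it. Records of any kind, the members included, numbered 280, 206, 854 and 1278 in tracts 1 to 4, of 6425 on the chromosome. Whether the left-out records gathered in the tracts more than all records did was not tested.

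The 100 kb from 7300001 to 7400000 in tract 1 held 33 heterozygous SNVs, the most of any 100 kb of chromosome 4. Their median depth was 18 reads, the mapping quality was 50 at all 33, and the median alternate share was 30%. What gives rise to them was not tested.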

How the results depend on the processing

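Over 6 results, 57 alternative values were computed, and 45 stayed within the counting interval of the reported value or, for counts, within 1.5 times. Several alternatives changed few SNVs: 1356 were homozygous without a quality minimum and 1345 at a mapping quality of at least 40. At a depth of at least 20, 876 homozygous SNVs were left, with 468 in dense tracts, a median depth of 47.5, 86.2% homozygous and 56.4 per 100 counted genes. At a depth of at least 5 there were 1918 homozygous SNVs, with 1209 in dense tracts, both still within 1.5 times. The median depth was then 17. Read from the high-quality bases at the reported limits, the median depth was 25. The homozygous share was 74.1% without a quality minimum and 90.5% at a quality of at least 100. Among SNVs at a depth of at least 10, few homozygous and many heterozygous ones had a low quality. Per 100 genes, the value was 75.7 for genes with at least 1 count in each library, 103 at 50 counts and 78.6 from the IL3-2 libraries alone. Leaving out each library in turn gave 86.0 to 87.2. The SNVs in dense tracts numbered 707 to 955 when bins or blocks were drawn otherwise. The transition share stayed within its interval under every alternative run, at 60.1% with 1 site per 1 kb. The values without tract 1, 62.4% transitions and 85.7% homozygous, were chosen after seeing the data. No paired analysis was possible because the SNVs come from 1 library and no result compares groups by a test. Depth limits what is seen: 71.2% of the homozygous SNVs of chromosome 4 fell under the limits, at a median of 2 reads.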

Other observations

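Directly adjacent homozygous SNVs were found at 12 places on chromosome 4. Examples are G61761587T with C61761588T, both at 199 reads in tract 4, and A61420507T with A61420508T, both at 62 reads. At 58016713 and 58016714 the reference base is N and 2 alternate bases are listed at each, so these 2 members mark an unknown reference base and not a known difference. They and 2 further members with 2 alternate bases were left out of the transition share.

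At 4 members, fewer than 90% of the high-quality bases were alternate although the genotype was homozygous. The lowest was G21890134T with 6 alternate and 7 reference bases and a mapping quality of 34. The close-by C21889995T had 9 and 2. In tract 4, A60072538G had 115 alternate and 29 reference bases at 144 reads, and A60422101G had 27 and 5. All 4 had a mapping quality of 45 or less.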
